A study of Homo sapiens with 4 samples.

Results

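Collagens and laminins are secreted matrix proteins, and integrins are the receptors by which cells hold on to them. Type IV collagen and laminin each form a network, and the 2 networks together make the basement membrane, the thin sheet on which epithelial cells sit. A laminin is a trimer of an alpha, a beta and a gamma chain, and an integrin pairs an alpha with a beta chain, so the chains a cell transcribes limit which trimers and receptors it can build. Integrins bound to matrix signal to focal adhesion kinase and to PI3K, the pathway that 1 of the drugs used here inhibits.

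The members were all gene symbols of the deposited expression table that follow the naming patterns of collagen chains, laminin chains and integrin alpha and beta chains, if their average over the 4 libraries was 1 FPKM or more. FPKM counts fragments per kilobase of a transcript in every 1000000 mapped fragments. It is a level per length, so levels of different genes can be set side by side. Of 80 such symbols among 26255 in the table, 38 passed. They were 16 of 44 collagens, 9 of 12 laminins, 7 of 16 integrin alpha chains and 6 of 8 integrin beta chains. Just inside the floor were LAMB3, ITGB6 and LAMC3 with means of 1.03, 1.06 and 1.23 FPKM, and just outside were COL1A2, COL9A3 and COL13A1 with 0.893, 0.712 and 0.685 FPKM. Of the 42 symbols under the floor, 9 were listed at 0 in all libraries and 38 were below 0.5 FPKM in every library.

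The libraries came from TOV21G, an established human line of ovarian clear cell carcinoma. Cells received both As2O3 at 1 µM and GSK458 at 0.1 µM, As2O3 alone at 1 µM, GSK458 alone at 0.1 µM, or no drug (the control). The treatments lasted 48 h; no time is labelled for the control. As2O3 (arsenic trioxide) reacts with thiols and is used in acute promyelocytic leukaemia, and GSK458 inhibits the kinases PI3K and mTOR. There was 1 library per group, so no value below has a replicate error, no difference has a test, and each statement describes these libraries of 1 cell line.

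All differences are between values of log2(FPKM + 1), a scale that makes those of low genes look smaller, and the 12260 genes averaging 1 FPKM or more serve as background. The absolute depth is unknown, so no counting interval can be given. Relative depth, read from the FPKM that a single fragment adds to low genes, was 85.8% (both drugs), 96.3% (As2O3) and 109% (GSK458) of the control's. This reading assumes that the deposited values were scaled by depth alone, which was not tested. Over all genes the median of GSK458 minus control was −0.0050 as deposited. It was −0.0083 after scaling by the median gene ratio between libraries. The deposited values were thus already close to that scaling, so these percentages may be scaling factors and not depths. The labelled cell type was checked on PAX8 and epithelial markers. PAX8 was at 83.6 to 149 FPKM and the keratins KRT8 and KRT18 at 166 to 241 FPKM, while EPCAM (0.608 to 1.71 FPKM) and KRT19 (0.132 to 0.521 FPKM) were near 0 and KRT7 (1.45 to 2.79 FPKM) and MUC1 (1.58 to 2.77 FPKM) were low. Of 8 fibroblast markers only ACTA2 had a mean of at least 1 FPKM, and LUM and FAP were listed at 0 in all libraries. The summed level of this list was 40.0 FPKM with both drugs, 22.5 with As2O3, 46.7 with GSK458 and 31.0 in the control. None of 6 endothelial markers reached that mean (summed levels of 0.017 to 0.079 FPKM, with KDR, TEK and CLDN5 at 0 in all libraries). Of 6 immune markers only CD68 did, at 2.63 FPKM with both drugs, 4.15 with As2O3, 1.12 with GSK458 and 0.782 in the control, at least 2-fold above the control with As2O3 and with both drugs. The summed level of that list was 2.77 FPKM with both drugs, 4.38 with As2O3, 1.20 with GSK458 and 1.07 in the control, and PTPRC and CD3E were at 0 in all libraries. The part of these cell types in the results was not tested.

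COL4A1 and COL4A2 encode the chains of the most widespread type IV collagen, and their genes lie head to head on chromosome 13. The stretch between their starts is shown because both genes had their lowest value with both drugs and differed from the control there by almost the same amount. The starts of COL7A1 and COL17A1 follow, because these had the largest differences from the control among members, COL7A1 higher with GSK458 and COL17A1 lower with both drugs. Sequences are from RefSeq on GRCh38.p14, while the authors used hg19, and are written 5′ to 3′ on the strand named. The first runs from chr13:110307158-110307283 on the plus strand, the strand of COL4A2, and holds all 126 bases between the starts. The others are the 250 bases before the start, chr3:48595330-48595579 for COL7A1 and chr10:104085881-104086130 for COL17A1, both on the minus strand. Capitals mark a GC box (GGGCGG) or a CCAAT box (CCAAT) on either strand.
COL4A1 and COL4A2: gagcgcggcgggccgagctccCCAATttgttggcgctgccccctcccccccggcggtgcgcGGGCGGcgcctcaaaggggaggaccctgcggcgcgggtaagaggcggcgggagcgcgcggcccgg
COL7A1: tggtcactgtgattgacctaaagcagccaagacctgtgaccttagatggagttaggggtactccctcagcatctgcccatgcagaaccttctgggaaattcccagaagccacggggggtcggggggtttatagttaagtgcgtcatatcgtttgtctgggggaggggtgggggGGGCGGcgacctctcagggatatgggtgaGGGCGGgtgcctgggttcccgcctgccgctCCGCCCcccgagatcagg
COL17A1: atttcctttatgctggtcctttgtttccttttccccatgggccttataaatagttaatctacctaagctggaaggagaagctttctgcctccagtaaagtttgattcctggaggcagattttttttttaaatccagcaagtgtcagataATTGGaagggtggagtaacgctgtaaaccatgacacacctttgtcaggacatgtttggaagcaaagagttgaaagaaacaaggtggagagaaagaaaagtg

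The stretch between COL4A1 and COL4A2 held 1 GC box and 1 CCAAT box and was 80.2% G or C. The COL7A1 sequence held 3 GC boxes and was 60.8% G or C, and the COL17A1 sequence held 1 CCAAT box and was 40.4% G or C. The median over 35116 promoter windows of 300 bases was 58.7%. A promoter window of that length, 250 bases before to 50 after the start, was at hand for 27 members. A GC box was in the window of 21 of these 27, against 45.0% of all windows, and a CCAAT box in 8 of 27, against 34.6%. The AP-1 element TGANTCA was in 3 of 27 (ITGA5, LAMA3 and LAMB3; 7.71% of all windows) and the antioxidant response element TGACNNNGC in 3 of 27 (COL4A5, ITGB1 and ITGB5; 13.3%). The FOXO element GTAAACA was in none of the 27 and in 3.42% of all windows. Both strands were searched, and these are matches of letters only. The shares of all windows count windows rather than genes and were not limited to expressed genes. They are therefore not a matched background for the members.

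**Figure D1:**
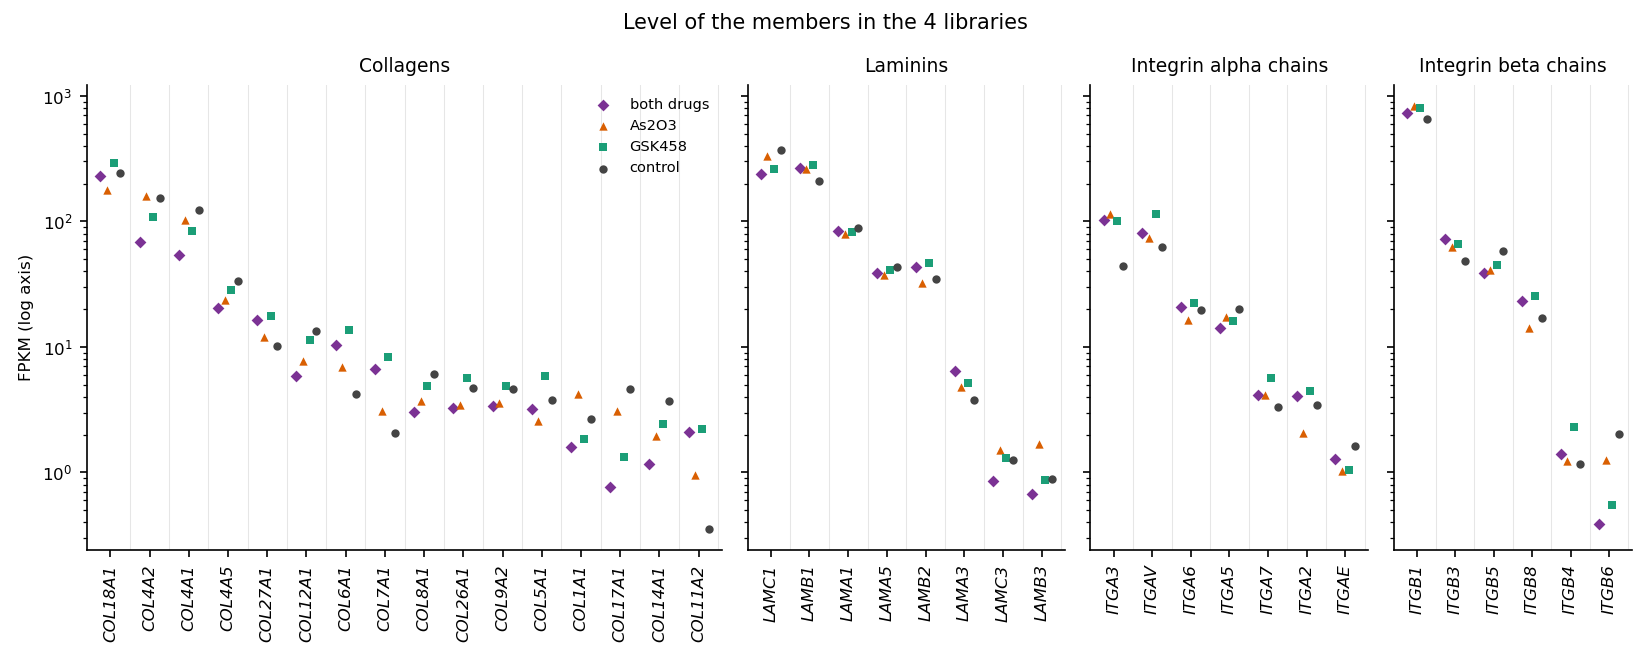
Level of 37 of the 38 members in FPKM on a log axis, by family and in order of the mean, with 1 point per library (diamond both drugs, triangle As2O3, square GSK458, circle control). ITGB1 is the highest at 651 to 836 FPKM, and ITGA3 shows the control point apart below the 3 treated points.

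In all libraries the collagen transcripts of these cells were mainly those of the basement membrane. COL18A1, a basement membrane collagen whose tail is released as endostatin, was at 228 FPKM with both drugs, 177 with As2O3, 293 with GSK458 and 243 in the control. It was highest with GSK458 and lowest with As2O3. COL4A1 was at 54.4 FPKM with both drugs, 103 with As2O3, 84.4 with GSK458 and 123 in the control. COL4A2 was at 69.1 FPKM with both drugs, 158 with As2O3, 109 with GSK458 and 154 in the control. Both chains were lowest with both drugs, at 0.440 and 0.448 of the control level. The log2 difference of both drugs from the control was −1.17 for COL4A1 and −1.15 for COL4A2, and it stayed beyond 2-fold under all 7 alternative settings.

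With a single drug the type IV chains differed less. GSK458 minus control was −0.54 for COL4A1 and −0.50 for COL4A2, and As2O3 minus control was −0.26 and 0.04. Both drugs minus As2O3 was −0.91 for COL4A1 and −1.19 for COL4A2, so the difference with GSK458 was larger in the presence of As2O3 for both chains. The level of COL4A1 relative to COL4A2 was 0.787 with both drugs, 0.651 with As2O3, 0.777 with GSK458 and 0.800 in the control. COL4A5, a chain of another type IV trimer, was at 20.5 FPKM with both drugs, 23.7 with As2O3, 28.5 with GSK458 and 33.7 in the control. It was lower in each treated library than in the control, by less than 2-fold. In bulk RNA, fewer cells that express a gene and less RNA per cell cannot be told apart.

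COL4A1 and COL4A2 were 1 of 10 pairs of members that are neighbours among protein-coding genes in RefSeq. In 2 of the 10 pairs both genes passed the floor, and in 3 pairs 1 gene did. COL4A5 had a mean of 26.6 FPKM and its head-to-head neighbour COL4A6 a mean of 0.095 FPKM. LAMB1 (254 FPKM) lies beside LAMB4 (0.185 FPKM), and COL6A1 (8.76 FPKM) beside COL6A2 (0.243 FPKM). The chains encoded by COL6A1, COL6A2 and COL6A3 assemble into type VI collagen, and COL6A3 was also under the floor.

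A group of collagens was higher with GSK458. COL7A1 forms the anchoring fibrils that tie the basement membrane to the tissue beneath it, and was at 6.66 FPKM with both drugs, 3.09 with As2O3, 8.33 with GSK458 and 2.08 in the control. COL6A1 was at 10.4 FPKM with both drugs, 6.90 with As2O3, 13.6 with GSK458 and 4.18 in the control. COL11A2, a minor chain of cartilage-type fibrils, was at 2.11 FPKM with both drugs, 0.955 with As2O3, 2.24 with GSK458 and 0.356 in the control. In each of these collagens the GSK458 library was highest, both drugs came next, and the control was lowest. GSK458 minus control was 1.60 for COL7A1, 1.49 for COL6A1 and 1.25 for COL11A2. The FPKM of GSK458 over that of the control was 4.01, 3.24 and 6.27. With both drugs the log2 differences from the control were 1.32, 1.14 and 1.20. COL27A1, a fibrillar collagen, had the same order at a smaller size, with 16.4 FPKM with both drugs, 12.0 with As2O3, 17.5 with GSK458 and 10.2 in the control.

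Other collagens were lower in the treated libraries. COL17A1, the transmembrane collagen of hemidesmosomes, was at 0.759 FPKM with both drugs, 3.06 with As2O3, 1.32 with GSK458 and 4.59 in the control. The difference from the control was −1.67 with both drugs and −1.27 with GSK458, and the FPKM with both drugs was 0.166 of the control's. COL12A1 and COL14A1 encode fibril-associated collagens. COL12A1 was at 5.81 FPKM with both drugs, 7.76 with As2O3, 11.3 with GSK458 and 13.5 in the control, and COL14A1 was at 1.16 FPKM with both drugs, 1.95 with As2O3, 2.45 with GSK458 and 3.73 in the control. Both were lowest with both drugs and lower with As2O3 than with GSK458. Their differences from the control with both drugs were −1.09 and −1.13. COL8A1, a short-chain network collagen, had this order as well, with 3.02 FPKM with both drugs, 3.69 with As2O3, 4.87 with GSK458 and 6.06 in the control, and its log2 difference of −0.81 was below 2-fold.

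The remaining collagens were low. COL5A1, a chain that starts collagen fibrils, was at 3.20 FPKM with both drugs, 2.58 with As2O3, 5.87 with GSK458 and 3.76 in the control. COL26A1 was at 3.26 FPKM with both drugs, 3.46 with As2O3, 5.61 with GSK458 and 4.73 in the control. COL9A2, a chain of fibril-associated type IX collagen, lay between 3.41 and 4.88 FPKM. COL1A1, the main chain of type I collagen, was at 1.58 FPKM with both drugs, 4.24 with As2O3, 1.84 with GSK458 and 2.65 in the control. It was highest with As2O3, and both drugs minus As2O3 was −1.02. Its partner COL1A2 was under the floor at 0.402 FPKM with both drugs, 1.29 with As2O3, 0.432 with GSK458 and 1.45 in the control, and COL3A1, which marks fibroblasts, was listed at 0 in all libraries.

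As a family, all 16 collagens were lower with both drugs than with GSK458 alone. The median was −0.43 and none was 2-fold apart. With every library rescaled to the same sum the count was again 16 of 16 and the median −0.44. Scaling by the median gene ratio between libraries left the values nearly unchanged. Over all 12260 genes 49.4% were lower in this comparison and the median was 0.00. The lower direction was not particular to collagens. It was also found for 7 of 9 laminins, 5 of 7 integrin alpha chains and 5 of 6 integrin beta chains. Together 33 of the 38 members were lower, with a median of −0.19. The collagen levels summed to 430 FPKM with both drugs, 516 with As2O3, 594 with GSK458 and 615 in the control. COL4A1 and COL4A2 made up 28.7% of that sum with both drugs, 50.7% with As2O3, 32.5% with GSK458 and 45.2% in the control. COL18A1 made up 53.0% with both drugs, 34.3% with As2O3, 49.3% with GSK458 and 39.5% in the control. The summed collagen level was thus lowest with both drugs, at 0.699 of the control's (0.670 with every library rescaled to the same sum).

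**Figure D2:**
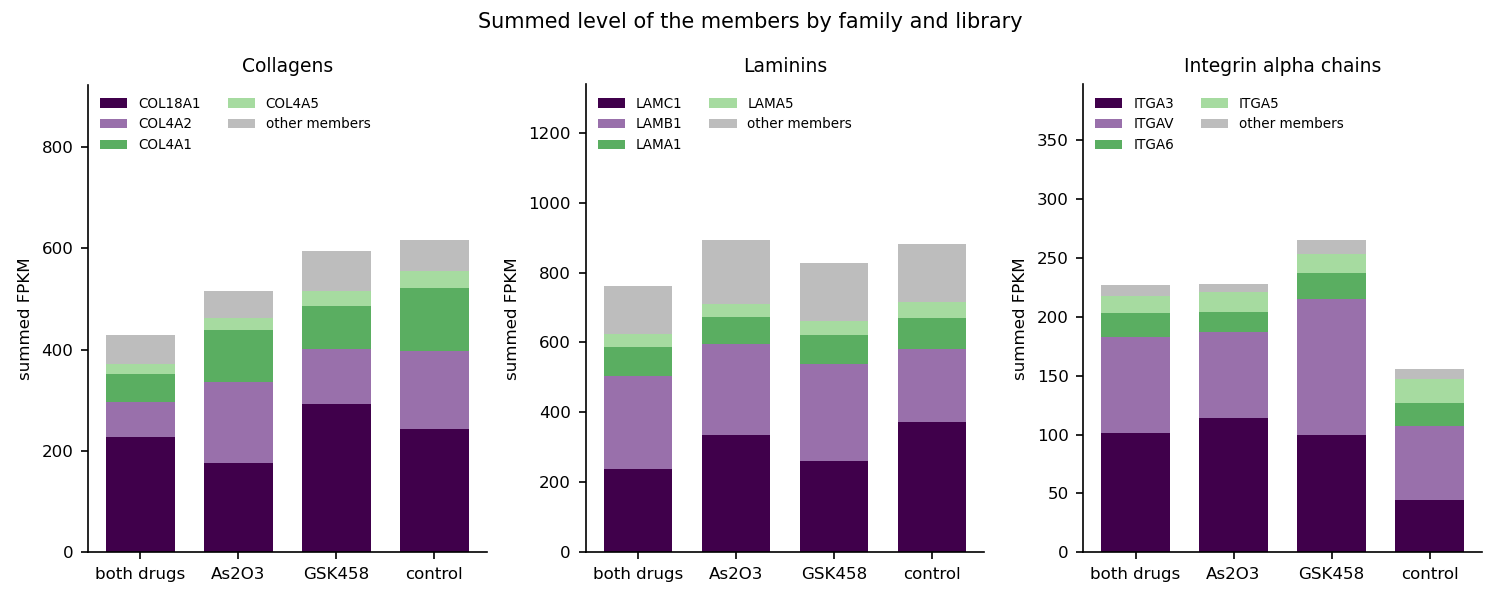
Summed FPKM of the members of 3 families in each library (bars from 0), split into 4 named members and the others. The collagen sum is 430 FPKM with both drugs and 615 in the control, and the integrin alpha sum is at least 227 FPKM in each treated library and 155 FPKM in the control.

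No laminin chain was 2-fold apart in any of the 5 comparisons at a pseudocount of 1 FPKM. The gamma chain LAMC1, part of most laminins, was at 237 FPKM with both drugs, 335 with As2O3, 260.0 with GSK458 and 371 in the control. It was lowest with both drugs, where its log2 difference from the control was −0.64. The gamma chain LAMC3 was low, at 0.853 to 1.51 FPKM.

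The beta chain LAMB1 was at 266 FPKM with both drugs, 260.0 with As2O3, 279 with GSK458 and 211 in the control, lowest in the control. The level of LAMC1 relative to LAMB1 was therefore 0.893 with both drugs, 1.29 with As2O3, 0.931 with GSK458 and 1.76 in the control. LAMB2, the beta chain of mature basement membranes, was at 43.7 FPKM with both drugs, 32.6 with As2O3, 46.5 with GSK458 and 34.6 in the control. LAMB3, a partner of LAMA3, was low, at 0.677 FPKM with both drugs, 1.68 with As2O3, 0.870 with GSK458 and 0.881 in the control. It was highest with As2O3, and both drugs minus As2O3 was −0.67, or −1.19 with a pseudocount of 0.1 FPKM, which is past 2-fold. LAMB3 reached 1 FPKM only with As2O3 and passed the floor through that library. This difference thus uses the value that let LAMB3 pass.

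Of the alpha chains, which carry the sites that integrins bind, LAMA1 was the most abundant, at 83.6 FPKM with both drugs, 78.6 with As2O3, 82.6 with GSK458 and 88.7 in the control. LAMA5 was at 38.8 FPKM with both drugs, 37.3 with As2O3, 40.7 with GSK458 and 43.6 in the control. These 2 alpha chains kept close to one another, with LAMA1 at 2.03 to 2.15 times the LAMA5 level. LAMA3 was at 6.47 FPKM with both drugs, 4.79 with As2O3, 5.16 with GSK458 and 3.76 in the control. LAMA2 and LAMA4 were under the floor.

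Among the integrins ITGA3 stood out. It encodes an alpha chain that pairs with ITGB1 into a laminin receptor, and was at 102 FPKM with both drugs, 114 with As2O3, 99.8 with GSK458 and 44.2 in the control. The 3 treated libraries lay close together and above the control. The log2 differences from the control were 1.18 with both drugs, 1.35 with As2O3 and 1.16 with GSK458, and stayed beyond 2-fold under all 7 alternative settings. Either drug added to the other left ITGA3 nearly where it was, with differences of −0.16 for both drugs minus As2O3 and 0.03 for both drugs minus GSK458. Its departure from additivity, the difference with both drugs minus the sum of the single-drug differences, was −1.32. ITGA3 made up 44.8% of the summed integrin alpha level with both drugs, 49.9% with As2O3, 37.7% with GSK458 and 28.5% in the control.

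The other laminin-binding alpha chains moved less. ITGA6, which pairs with ITGB1 or ITGB4, was at 20.8 FPKM with both drugs, 16.3 with As2O3, 22.3 with GSK458 and 19.7 in the control. ITGA7, a chain best known from muscle, was at 4.10 FPKM with both drugs, 4.14 with As2O3, 5.70 with GSK458 and 3.29 in the control. ITGA3 was 4.89 times ITGA6 with both drugs, 7.004 times with As2O3, 4.48 times with GSK458 and 2.24 times in the control. ITGA2, the only collagen-binding alpha chain that passed, was at 4.03 FPKM with both drugs, 2.06 with As2O3, 4.47 with GSK458 and 3.44 in the control.

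ITGAV and ITGA5 encode alpha chains that bind the RGD motif of fibronectin, vitronectin and osteopontin. ITGAV was at 81.0 FPKM with both drugs, 73.4 with As2O3, 115 with GSK458 and 62.8 in the control, highest with GSK458 at a log2 difference of 0.86. ITGA5, the fibronectin receptor chain, was at 14.2 FPKM with both drugs, 17.2 with As2O3, 16.2 with GSK458 and 20.1 in the control. ITGAE, an alpha chain best known from lymphocytes of epithelia, was at 1.02 to 1.61 FPKM. The leukocyte chains ITGAL, ITGAM and ITGAX and the leukocyte beta chain ITGB2 were under the floor.

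ITGB1, the partner of most alpha chains, took 83.7% to 87.4% of the summed beta level in every library. It was at 737 FPKM with both drugs, 836 with As2O3, 801 with GSK458 and 651 in the control, lowest in the control. ITGB3, which pairs with ITGAV, was at 72.6 FPKM with both drugs, 62.9 with As2O3, 66.1 with GSK458 and 48.4 in the control, also lowest there. Its exons share 51.6% of their bases with another gene on the same strand in GENCODE, so its value is uncertain. That gene is not listed in the deposited table, so the effect on ITGB3 is unknown. ITGB5, another partner of ITGAV, was highest and not lowest in the control, at 39.1 FPKM with both drugs, 41.2 with As2O3, 45.1 with GSK458 and 58.4 in the control. ITGB8 was at 23.2 FPKM with both drugs, 14.1 with As2O3, 25.3 with GSK458 and 17.0 in the control.

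The epithelial partner chains were low. ITGB6, the ITGAV partner known from injured and malignant epithelium, was at 0.389 FPKM with both drugs, 1.26 with As2O3, 0.546 with GSK458 and 2.03 in the control. It was lowest with both drugs (log2 difference −1.13) and is uncertain for the same reason as ITGB3. ITGB4, the beta chain of hemidesmosomes, was at 1.40 FPKM with both drugs, 1.23 with As2O3, 2.32 with GSK458 and 1.17 in the control. The integrin alpha levels summed to 227 FPKM with both drugs, 228 with As2O3, 265 with GSK458 and 155 in the control. The beta levels summed to 873 FPKM with both drugs, 956 with As2O3, 940.5 with GSK458 and 778 in the control.

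**Figure D3:**
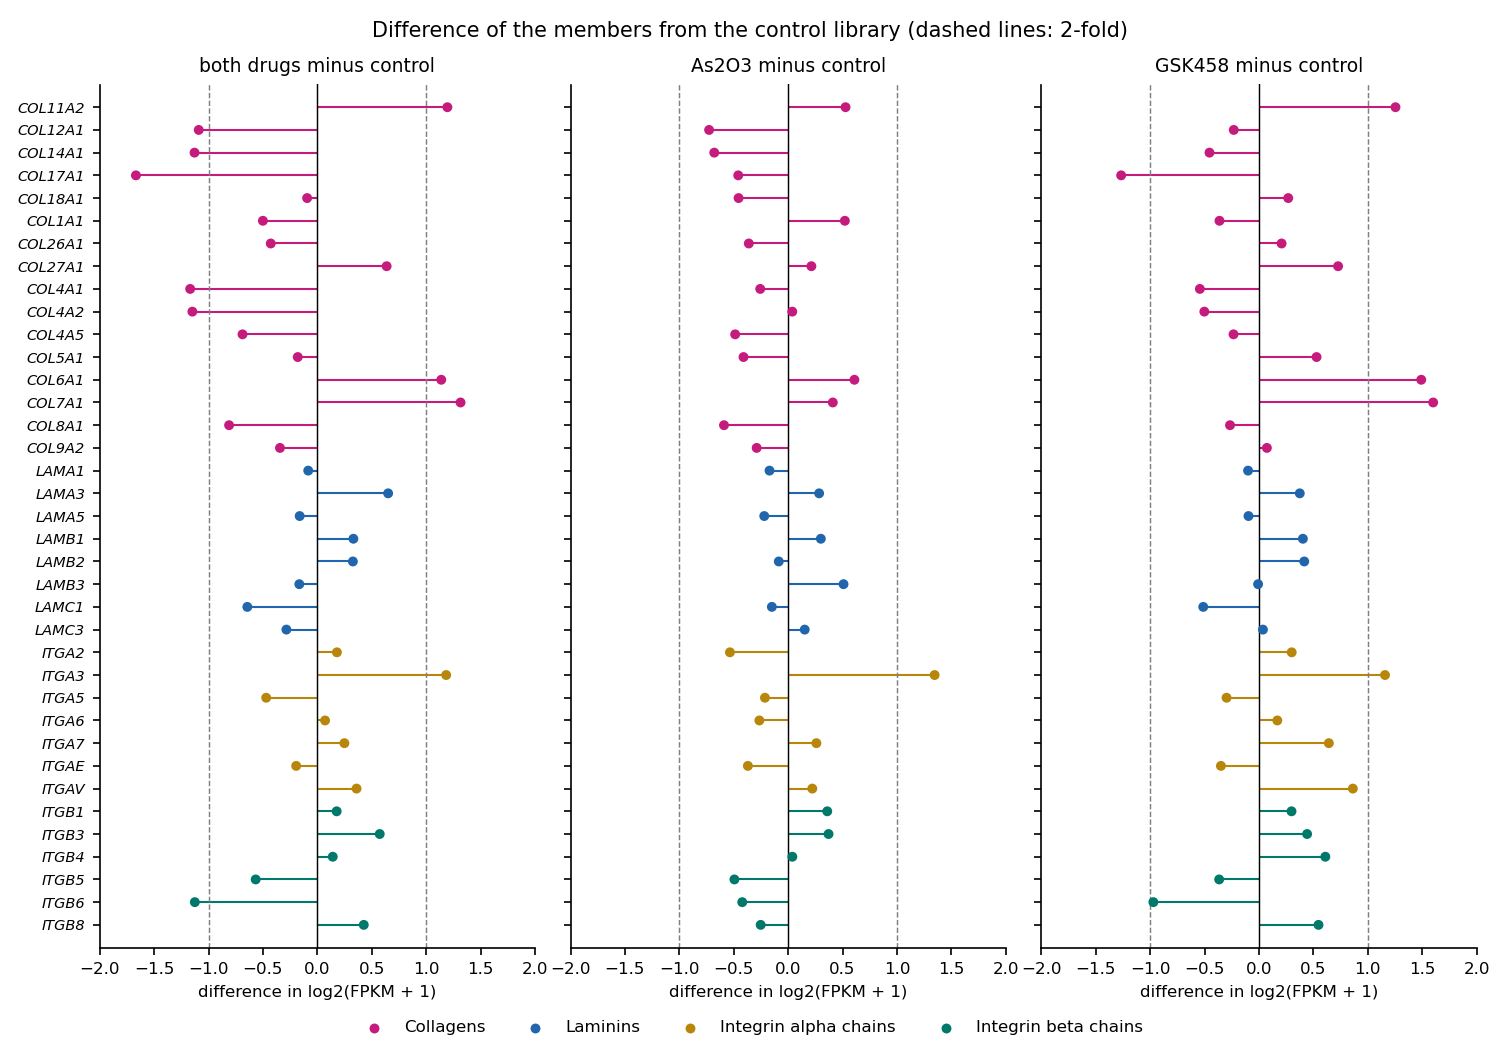
Difference of 37 of the 38 members from the control in log2(FPKM + 1), for both drugs, As2O3 and GSK458, coloured by family, with dashed lines at 2-fold. ITGA3 is beyond 2-fold in all 3 panels, and COL4A1 and COL4A2 pass it only with both drugs.

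Counted over the 38 members, both drugs against the control gave 4 members at least 2-fold higher (10.5%) and 6 lower (15.8%), against 3.25% of all genes higher and 4.31% lower. The higher were COL7A1, COL11A2, ITGA3 and COL6A1, and the lower COL17A1, COL4A1, COL4A2, COL14A1, ITGB6 and COL12A1. GSK458 against the control gave 4 higher (10.5%) and 1 lower (2.63%), against 2.35% and 3.87%. As2O3 against the control gave 1 higher, ITGA3, and none lower, against 2.07% and 1.41%, so the share with As2O3 was near the background. Both drugs against As2O3 gave none higher and 3 lower (COL17A1, COL4A2 and COL1A1), against 2.28% and 4.27%. Both drugs against GSK458 gave none either way, against 0.644% and 0.318%.

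Medians over the members were −0.16 for both drugs, −0.16 for As2O3 and 0.12 for GSK458 against the control, and those over all genes lay between −0.01 and 0.01. By family, both drugs minus control had a median of −0.46 for collagens (4 higher and 12 lower), −0.16 for laminins (3 and 6), 0.18 for integrin alpha chains (5 and 2) and 0.16 for integrin beta chains (4 and 2). As2O3 minus control had medians of −0.33 for collagens, 0.15 for laminins, −0.21 for alpha chains and −0.11 for beta chains. GSK458 minus control had medians of −0.08 for collagens, −0.01 for laminins, 0.30 for alpha chains and 0.37 for beta chains. These signs were the same with every library rescaled to the same sum, the only scaling tried that clearly changed the values. In all, 27 of the 38 members were 2-fold apart in no comparison, and the same count was not made over all genes. Of the 11 that were, COL11A2, COL17A1 and ITGB6 were below 1 FPKM in at least 1 library and so passed the floor through the libraries where they were high.

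Each drug's difference could be read again in the presence of the other drug, from libraries not shared with the first pair. For GSK458, COL7A1 and COL11A2 (2 of 38 members) were at least 1.5-fold higher in both pairs, where 3.61% of all genes were. The differences of COL7A1 and COL11A2 in the presence of As2O3 were 0.91 and 0.67. COL11A2, like COL17A1 and ITGB6 below, passed the floor through the libraries where it was high. The second pair is therefore no separate support for these genes. COL17A1 and ITGB6 (2 of 38 members) were at least 1.5-fold lower in both pairs, where 6.01% of all genes were. Their differences in the presence of As2O3 were −1.21 and −0.70. In both directions the share of members with GSK458 was near that of all genes. For As2O3, COL12A1 and COL14A1 were at least 1.5-fold lower in both pairs, where 0.538% of all genes were. COL12A1 differed by −0.73 without and −0.86 with GSK458, and COL14A1 by −0.68 and −0.67. No member was at least 1.5-fold higher in both As2O3 pairs, where 0.922% of all genes were. The direction was the same in both pairs for 29 of 38 members with GSK458 (71.3% of all genes) and 22 of 38 with As2O3 (58.4%). For each drug this was near the share of all genes. In all 3 treated libraries, ITGA3 and COL6A1 were at least 1.5-fold above the control, where 2.07% of all genes were. No member was as far below it, where 1.69% were. All 3 differences share the 1 control library, so they are not separate readings. The departure from additivity uses that library as well.

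**Figure D4:**
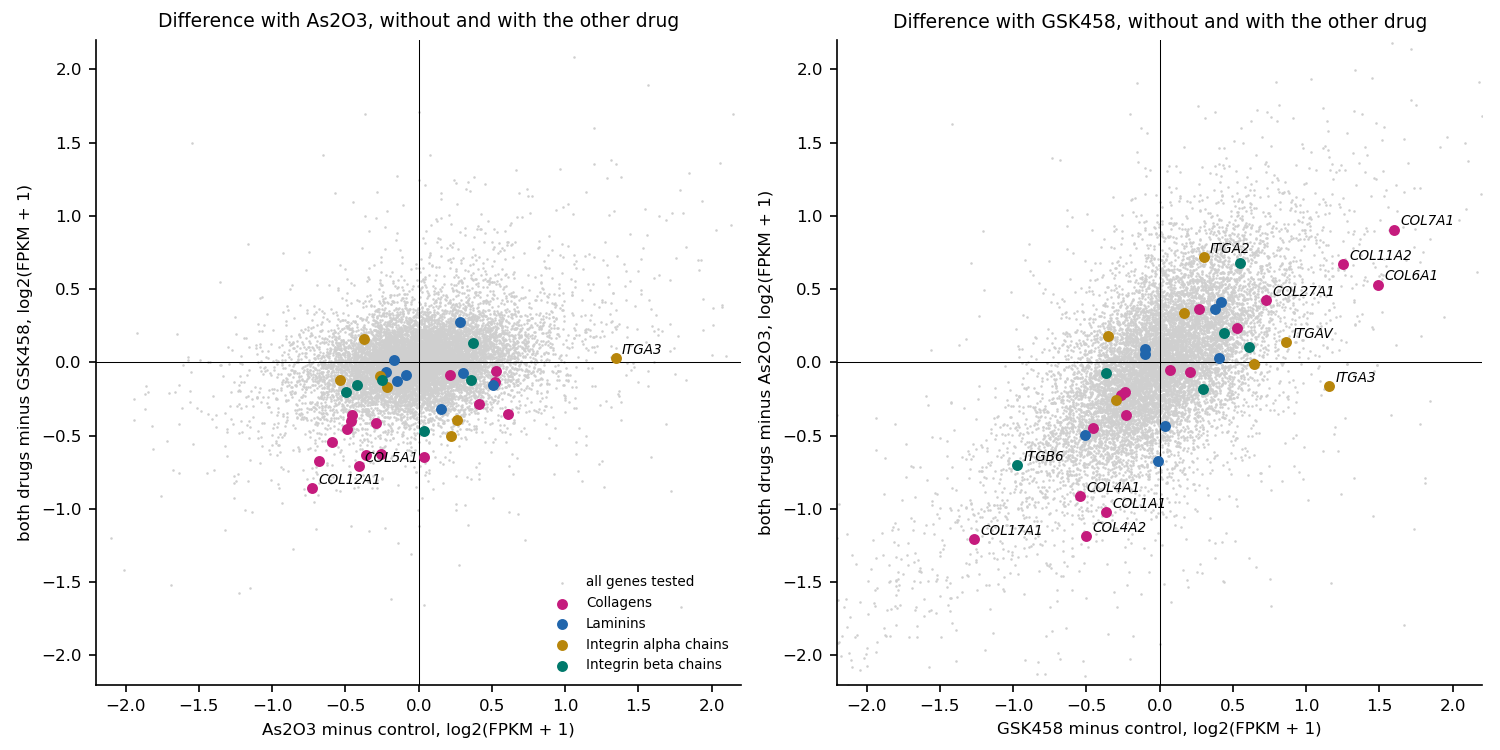
Difference with As2O3 (left) and with GSK458 (right) in log2(FPKM + 1), without the other drug on the horizontal axis and with it on the vertical axis. Coloured points are 37 of the 38 members, grey points all genes tested within the axis range; COL17A1 and COL7A1 keep their direction with GSK458 in both settings, and ITGA3 lies at 1.35 and 0.03 with As2O3.

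Departures from additivity of −0.5 or below were found for 11 of 38 members, against 10.2% of all genes. Those of 0.5 or above were found for 1 member, ITGAE, against 9.15% of all genes. COL11A2 and LAMB3 among the 11 had passed the floor through libraries where they were high. The median departure of the members was −0.185, and −0.057 with every library rescaled to the same sum. The share of all genes was not counted under that scaling. After ITGA3 at −1.32 the lowest were COL6A1 (−0.96), ITGAV (−0.72), COL7A1 (−0.69) and COL4A2 (−0.68). In COL6A1, COL7A1 and ITGAV the level with both drugs lay below that with GSK458 alone, although As2O3 alone was above the control. In COL4A2 As2O3 alone was near the control and both drugs were lower than GSK458 alone. COL17A1 (0.06), COL14A1 (0.01), COL12A1 (−0.13) and LAMC1 (0.02) were close to the sum of the single-drug differences.

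Other genes of the same machinery were read from lists. Of 23 genes that fold, modify or cross-link collagen, 2 were at least 2-fold lower with both drugs than in the control and none higher. Of all genes 4.31% were lower and 3.25% higher. PLOD1, a lysyl hydroxylase, was at 50.96 FPKM with both drugs, 85.3 with As2O3, 58.1 with GSK458 and 124 in the control. P3H3, of the prolyl 3-hydroxylase family, was at 27.7 FPKM with both drugs, 40.7 with As2O3, 34.9 with GSK458 and 58.6 in the control. SERPINH1, the chaperone HSP47 that binds procollagen, was at 89.3 FPKM with both drugs, 143 with As2O3, 94.2 with GSK458 and 159 in the control. The median of the list was −0.32 with both drugs, −0.08 with As2O3 and −0.44 with GSK458. With As2O3 the crosslinking transglutaminase TGM2 was the only one 2-fold higher, at 182 FPKM against 80.5 in the control, where 2.07% of all genes were.

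Against the control, both drugs gave 2 of 16 other matrix genes a level at least 2-fold higher and 2 a level as far below. The shares of all genes were 3.25% and 4.31%. SPARC, a collagen-binding glycoprotein of the basement membrane, was at 103 FPKM with both drugs, 241 with As2O3, 187 with GSK458 and 321 in the control. It was lowest with both drugs, as were COL4A1 and COL4A2. FREM2, a basement membrane protein, was at 2.97 FPKM with both drugs and 7.40 in the control. SPP1, which encodes osteopontin, a ligand of ITGAV and ITGB3, was at 1947 FPKM with both drugs, 1308 with As2O3, 761 with GSK458 and 571 in the control. VCAN, the proteoglycan versican, was at 161 FPKM with both drugs, 56.7 with As2O3, 128 with GSK458 and 64.5 in the control. TNC, the glycoprotein tenascin C, was 2-fold higher with GSK458 alone, at 43.0 FPKM against 18.8 in the control. FN1, the fibronectin bound by ITGA5, was low at 1.24 to 2.50 FPKM.

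Of 26 genes that link integrins to actin and signalling, none was 2-fold lower than in the control in any treated library. Of all genes 4.31% were lower with both drugs, 1.41% with As2O3 and 3.87% with GSK458, so none of 26 was near these shares. TGFB1I1, a paxillin relative, was at 49.7 FPKM with both drugs, 23.1 with As2O3, 47.1 with GSK458 and 20.9 in the control. ZYX, which encodes zyxin, was at 154 FPKM with both drugs, 112 with As2O3, 144 with GSK458 and 72.6 in the control, and the scaffold NEDD9 at 27.0 FPKM with both drugs, 27.2 with As2O3, 36.4 with GSK458 and 14.4 in the control. Among 12 other matrix receptors 1 was 2-fold higher and 1 lower with both drugs than in the control, against 3.25% and 4.31% of all genes. CD44, the hyaluronan receptor, was at 100.3 FPKM with both drugs, 62.1 with As2O3, 76.7 with GSK458 and 21.7 in the control, at least 2-fold above the control in each treated library as ITGA3 was. DAG1, the laminin receptor dystroglycan, was at 36.9 FPKM with both drugs, 33.3 with As2O3, 43.7 with GSK458 and 69.0 in the control, and the syndecan SDC4 at 43.0 FPKM with both drugs, 135 with As2O3, 55.8 with GSK458 and 91.3 in the control.

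Of 13 proteases and inhibitors, the membrane-anchored MMP24 was 2-fold higher with both drugs than in the control, at 5.25 against 1.76 FPKM. The secreted MMP7 was 2-fold lower, at 1.74 against 5.57 FPKM. Of all genes 3.25% were higher and 4.31% lower. The urokinase PLAU was at 134 FPKM with both drugs, 379 with As2O3, 218 with GSK458 and 161 in the control, and its receptor PLAUR at 1.82 FPKM with both drugs, 6.51 with As2O3, 2.27 with GSK458 and 1.93 in the control. Both were 2-fold higher with As2O3 alone, where 2.07% of all genes were, and neither was with both drugs.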

How the data were processed

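RNA of 4 TOV21G cultures was sequenced, 1 per group; labels of the samples gave group and dose. Per the labels' protocols, libraries were made with a stranded mRNA kit. The deposited table holds FPKM values that the authors computed from their reads. The submitters' processing notes name Cuffdiff 2.2.1, SAMtools 0.1.18, Bowtie2 2.2.8, TopHat2 2.1.1 and the build hg19. The annotation, strand setting and handling of multi-mapped reads are not stated there.

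The values entered unchanged. Genes averaging 1 FPKM or more over the 4 libraries were kept, a pseudocount of 1 FPKM was added, and log2 differences of at least 1 were counted as 2-fold. Groups of 1 library allow no test. The members and gene lists were chosen with earlier results of these data known. The passing members are described, except 1 that, like 1 marker of the labelled cell type, is not reported here. Of each list the genes at least 2-fold from the control are named, at most 3 per direction; SERPINH1, FN1 and COL3A1 were added after their values were seen. Exon overlaps were read from GENCODE 29 and neighbours and sequences from RefSeq (GRCh38.p14), both by symbol. One member, ITGA7, shared exon bases with a gene at a mean of at least 1 FPKM, METTL7B (44 bases). Calculations used Python 3.11.15, pandas 2.3.3 and numpy 2.4.6 and were tested on simulated data. Alternatives were other pseudocounts, floors, scalings and a 1.5-fold threshold.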

Additional observations from a re-analysis of the deposited data

How the results depend on the processing

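No paired analysis was possible because each group had 1 library. The pseudocount mattered most for low members. With 5 FPKM, 2 members were 2-fold apart for GSK458 against the control, 3 for both drugs against the control and 1 for both drugs against As2O3, in place of 5, 10 and 3. Of all 12260 genes, 382, 423 and 345 were 2-fold apart there. With 0.1 FPKM, 2 were apart for As2O3 against the control, 7 for both drugs against As2O3 and 1 for both drugs against GSK458, in place of 1, 3 and 0, and the median of both drugs against GSK458 was −0.32. The counts over all 12260 genes were 729, 1277 and 270. A mean of at least 5 FPKM left 23 members, of which 3, 6 and 1 were apart for GSK458 and for both drugs against the control and for both drugs against As2O3. Over all genes with that mean, 562, 668 and 542 were apart. The median of the members was 0.27 for GSK458 and 0.071 for both drugs against the control, and the sign of that last median turned with fewer genes entered. At 1.5-fold, 5 members were apart for As2O3, 10 for GSK458, 11 for both drugs against As2O3 and 6 for both drugs against GSK458. The share of all genes at 1.5-fold was not counted, so these have no background. With no floor the medians were 0 for each treatment against the control, −0.084 for both drugs against GSK458 and −0.0051 for the departure from additivity. Rescaling each library to the same sum moved the median of all genes by about 0.1 for GSK458 against the control (to −0.11), the members' median there to 0.018 and the departure to −0.057. The calls of ITGA3, COL4A1, COL4A2 and, with GSK458, COL6A1 held with either other pseudocount. They also held with every library rescaled to the same sum. The other 2-fold calls were lost with a pseudocount of 5 FPKM and held elsewhere. Holding under another floor was fixed in advance, because a floor cannot change a gene's own difference. Members averaging below 5 FPKM had no value under that floor. Scaling by the median gene ratio between libraries left the differences nearly unchanged. In 59 of the 82 alternative values for counts and medians there was no such move. The absolute depth is unknown, which limits what can be said of members near 1 FPKM.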
